A study of Rattus norvegicus with 16 samples.

Results

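The genes described are 5 members of sterol and fatty acid synthesis: Hmgcs1, Mvd, Dhcr7, Insig1 and Elovl6. They were taken by name from the annotation of a spotted cDNA chip. A spot was used where the annotation gave a single gene symbol equal to a member, and spots of the same gene were averaged on each array. The 5 genes were read by 9 of the 15151 spots, 2 for Insig1, 4 for Elovl6 and 1 for each of the others, and all 5 could be tested among 6241 named genes. Insig1 is a regulator of the pathway rather than an enzyme of it. The other 4 encode enzymes, so the group name describes 4 of the 5.

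The cells were rat neural stem and progenitor cells (Sprague-Dawley, neocortex, embryonic day 14.5), grown in monolayer on plastic coated with poly-L-ornithine and fibronectin. The tested cultures were kept with PDGF-AA (platelet-derived growth factor AA, given daily at 10 ng/ml) for 6 d or for 12 h, or without an added growth factor for 6 d or for 12 h. The reference on every array was RNA of the same kind of cells kept in fibroblast growth factor 2 (FGF-2, 10 ng/ml). Each of these 4 groups had 4 arrays, and the sample was in Cy5 on 2 of them and in Cy3 on the other 2. The labels state at least 2 batches of RNA for each time point without saying which arrays share one, so the p-values reflect how far hybridisations differ, and part of that spread may be technical. The FGF-2 RNA was hybridised only as the reference, so a test of a ratio against 0 leaves out the spread of FGF-2 cultures among themselves.

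Cholesterol is made from acetyl-CoA through the mevalonate pathway, and long saturated fatty acids are made by fatty acid synthase and then lengthened by elongases. Many genes of both routes are switched on by sterol regulatory element-binding proteins (SREBPs), membrane-bound transcription factors that Insig proteins hold in the endoplasmic reticulum when sterols are plentiful. Dividing cells need both kinds of lipid for new membrane, and in the brain cholesterol is made locally, with myelinating oligodendrocytes and astrocytes as well known sites of synthesis.

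Values are log ratios of the sample over the FGF-2 reference on arrays centred on their median. Neither the log base nor the direction of the deposited ratios is stated in the labels. The base was taken as 2. The direction was taken as sample over reference, which is likely because 13 of 13 DNA replication genes were below 0 and past the test after 12 h without growth factor, the mitogen having been removed. Between the lowest and the highest array the spread of all spots was 0.322 to 0.472 (SD). Rat RNA was read on mouse cDNA, so a spot's ratio may include related transcripts. In these bulk cultures a change in the share of cells that express a gene and a change in RNA per cell cannot be told apart.

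Each difference was tested with limma over all 12559 genes and unnamed spots, with a term for dye and Benjamini-Hochberg adjustment over all of them. A gene was called where the adjusted p was under 0.05. Errors after fitted differences are standard errors, and errors after group means are SDs over 4 arrays that include the dye effect. An effect of the dye was called for 39.1% of all units. Of the members, the fitted dye term was 0.27 for Insig1 (limma adjusted p = 0.0058), 0.25 for Elovl6 (limma adjusted p = 0.0117), -0.30 for Mvd (limma adjusted p = 0.0526), 0.12 for Hmgcs1 and 0.03 for Dhcr7, as the distance of a Cy5 sample from the midpoint of both dyes.

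Both 6 d arrays numbered 4 stood apart from the other arrays with their label on the 2 gene lists given here. On the DNA replication genes, the PDGF-AA 6 d array 4 had a mean of -1.12, against -0.23 to 0.35 on the other PDGF-AA 6 d arrays, and the no factor 6 d array 4 had -0.51, against -1.17 to -0.90 on the others of that group. On 3 oligodendrocyte lineage genes the means of these arrays were 2.27 with PDGF-AA, against 0.77 to 1.32 on the others, and 0.70 without factor, against 2.02 to 2.29. Each of the 2 arrays thus had list means nearer those of the other treatment. Over all units, with the dye effect removed, PDGF-AA 6 d array 4 correlated at 0.38 to 0.59 with no factor 6 d arrays 1 to 3 and at 0.03 to 0.28 with PDGF-AA 6 d arrays 1 to 3. No factor 6 d array 4 correlated at 0.15 to 0.37 with PDGF-AA arrays 1 to 3 and at 0.09 to 0.49 with its own, so for this array the ranges overlapped. Low correlation within the PDGF-AA 6 d group was not particular to array 4. The median r with the own group was 0.026, 0.195, -0.056 and 0.195 for PDGF-AA 6 d arrays 1 to 4. With the no factor 6 d group it was 0.135, 0.249, 0.263 and 0.426. Both arrays numbered 4 were kept under their labels, and the 6 d results for the members are given with and without them. Replicate numbers follow deposition order and name an array without pairing it.

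Promoter windows of 4 of the 5 members, all but Elovl6, are shown because these genes are known as a group through a shared transcription factor. The windows run from 250 bases before to 50 after the gene start, in RefSeq annotation of the rat build GRCr8. Capitals mark 3 motifs found by exact search on both strands: the E-box CACGTG, the NF-Y box CCAAT and the GC box GGGCGG, or the reverse complement of each. Insig1 lies on the minus strand at chr4:8057720-8058019, Dhcr7 on the plus strand at chr1:208444184-208444483, Hmgcs1 on the plus strand at chr2:53382054-53382353 and Mvd on the minus strand at chr19:67414925-67415224. Each sequence is written 5′ to 3′ in the direction of its gene.
Hmgcs1: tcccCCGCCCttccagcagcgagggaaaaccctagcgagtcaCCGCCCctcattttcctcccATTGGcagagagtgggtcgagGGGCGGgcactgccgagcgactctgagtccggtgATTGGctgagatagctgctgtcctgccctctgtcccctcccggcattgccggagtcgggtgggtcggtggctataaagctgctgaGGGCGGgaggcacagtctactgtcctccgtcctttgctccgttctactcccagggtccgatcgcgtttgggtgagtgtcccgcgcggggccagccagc
Mvd: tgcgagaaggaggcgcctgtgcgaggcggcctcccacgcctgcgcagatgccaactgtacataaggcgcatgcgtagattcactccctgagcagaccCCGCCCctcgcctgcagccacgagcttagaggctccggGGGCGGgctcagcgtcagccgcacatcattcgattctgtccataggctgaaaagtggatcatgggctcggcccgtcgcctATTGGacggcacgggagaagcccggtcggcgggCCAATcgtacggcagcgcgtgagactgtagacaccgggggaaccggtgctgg
Dhcr7: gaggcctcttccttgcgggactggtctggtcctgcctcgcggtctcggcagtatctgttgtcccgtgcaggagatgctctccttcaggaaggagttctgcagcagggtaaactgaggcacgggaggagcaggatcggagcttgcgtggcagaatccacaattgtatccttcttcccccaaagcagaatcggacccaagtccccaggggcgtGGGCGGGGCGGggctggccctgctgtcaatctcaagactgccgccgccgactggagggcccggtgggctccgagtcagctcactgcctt
Insig1: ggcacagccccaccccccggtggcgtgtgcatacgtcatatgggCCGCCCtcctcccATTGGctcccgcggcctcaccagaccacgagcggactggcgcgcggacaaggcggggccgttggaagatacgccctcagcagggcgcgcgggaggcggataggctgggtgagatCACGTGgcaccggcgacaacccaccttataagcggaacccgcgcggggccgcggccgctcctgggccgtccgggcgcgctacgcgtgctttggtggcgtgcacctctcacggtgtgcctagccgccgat

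The GC box was in 4 of the 4 windows and in 33.1% of 33469 RefSeq promoter windows of the same length. Hmgcs1 held it 4 times, Mvd 2 times, Insig1 1 time, and Dhcr7 2 times in copies that overlap by a base. The NF-Y box was in 3 of the 4 windows, in all but that of Dhcr7, and in 37.5% of all windows. Its copies began 188 and 133 bases before the start of Hmgcs1, 35 and 2 before that of Mvd and 193 before that of Insig1. The E-box was in the window of Insig1 alone, 79 bases before the start, and in 6.4% of all windows. A core of the sterol regulatory element, searched as TCACNCCAC, was in 0 of the 4 windows and in 1.1% of all windows, which says only that these letters are not in these stretches.

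Against the FGF-2 reference, all 5 genes had group means below 0 after 12 h in both media. At 12 h with PDGF-AA, 2 of 5 members were called, both lower, where 3.01% of all units were called in either direction, and the median of the members was -0.53 against -0.0005 over all units. At 12 h without factor 4 of 5 were called, all lower, where 11.7% of all units were called, with a median of -0.72 against -0.001. At 6 d with PDGF-AA 0 of 5 were called by limma, where 3.22% of all units were called. The same group had 404 of 12559 units called and 1949 at an unadjusted p under 0.05, and the members' median was -0.06 against 0.0036. At 6 d without factor 2 of 5 were called, both lower, where 13.7% of all units were called, with a median of -0.28 against 0.0043.

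Between 6 d and 12 h, 2 of 5 members were called with PDGF-AA, Hmgcs1 and Dhcr7, both higher at 6 d, where 1.07% of all units were called. The median difference of the members was 0.36, against 0.0087 over all units, and all 5 were above 0. Without factor 0 of 5 were called by limma, where 1.87% of all units were called and 1430 of 12559 had an unadjusted p under 0.05. Their median difference was 0.44 against 0.0167, with Mvd below 0 and the other 4 above it. The difference between these time courses was called for 0 of 5 members by limma, and for 0% of all units, with 497 of 12559 units at an unadjusted p under 0.05. The fitted interactions ran from -0.09 for Elovl6 to 0.85 for Mvd.

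**Figure D1:**
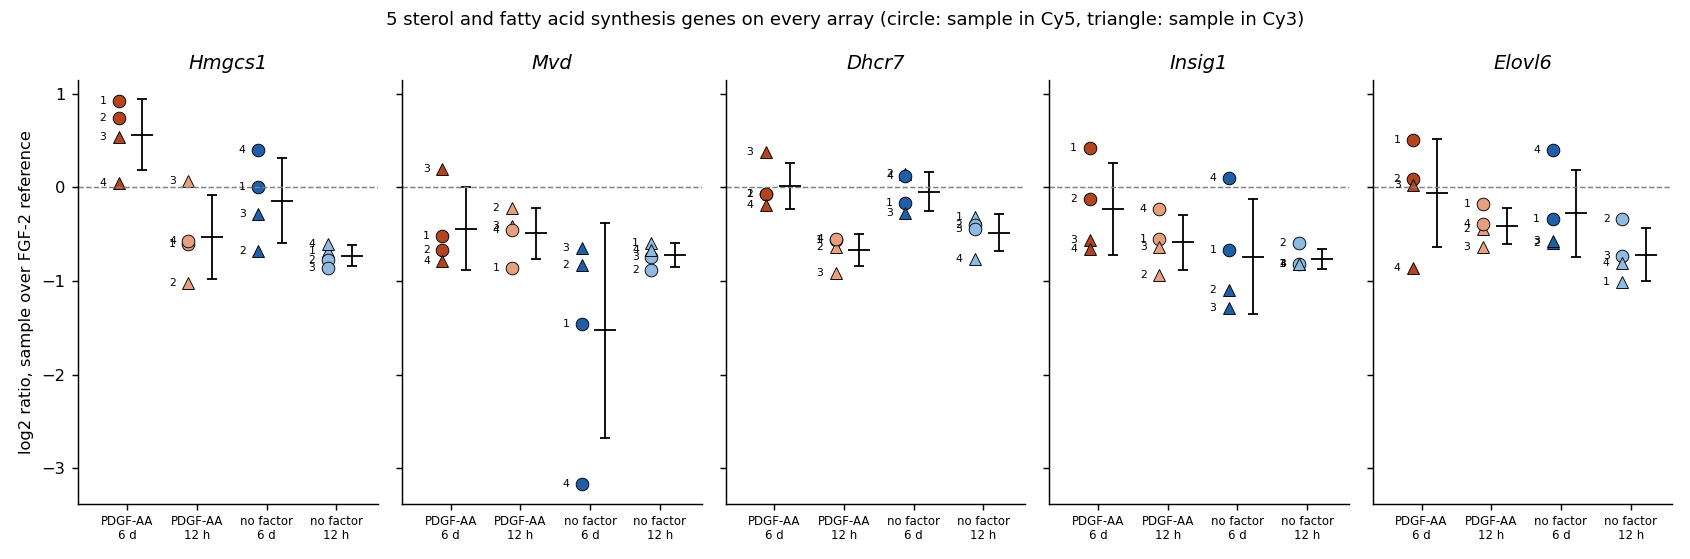
Log2 ratio of each sample over the FGF-2 reference for the 5 genes on the 16 arrays, with the array number beside each point, circles for samples in Cy5 and triangles for samples in Cy3. The horizontal dash and bar give the mean ± SD of 4 arrays. All points of the 12 h groups lie below 0 except PDGF-AA array 3 for Hmgcs1, and the no factor 6 d array 4 is the lowest point of Mvd, at -3.17.

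Hmgcs1 encodes cytosolic HMG-CoA synthase, an early enzyme of the mevalonate pathway, and its sequence is the first of those above. With PDGF-AA its log2 ratios at 6 d were 0.93, 0.74, 0.54 and 0.04, against -0.60, -1.02, 0.06 and -0.57 at 12 h. Every 6 d array was above 0, and the groups overlapped only through the third array at 12 h, which lay just above the lowest 6 d array, array 4. The difference was 1.10 ± 0.23, a 2.14-fold higher ratio at 6 d (limma adjusted p = 0.0289). Without factor the ratios were 0.01, -0.68, -0.29 and 0.40 at 6 d, against -0.68, -0.77, -0.86 and -0.61 at 12 h. The 12 h arrays were tight, the 6 d arrays were wide, and the groups overlapped by a single 6 d array. That difference was 0.59 ± 0.23 and was not called (limma adjusted p = 0.287), and it was 0.42 ± 0.22 without both arrays numbered 4 (limma adjusted p = 0.593).

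The Hmgcs1 call at 6 d with PDGF-AA depended on single arrays. It held in 10 of 16 fits that left out a single array, over differences of 0.96 to 1.35, and was lost without PDGF-AA 6 d array 1, 2 or 3 or PDGF-AA 12 h array 1, 2 or 4 (limma adjusted p = 0.0761 to 0.120). It was lost with no dye term (limma adjusted p = 0.0875) and when only both PDGF-AA groups were fitted (limma adjusted p = 0.146). The exact two-sided permutation test gave p = 0.0571, where 4 against 4 arrays can reach 0.0286 at the smallest. Without both 6 d arrays numbered 4 it was 1.26 ± 0.22 (limma adjusted p = 0.0086). Against FGF-2, Hmgcs1 was lower at 12 h without factor at -0.73 ± 0.16 (limma adjusted p = 0.0071). That call was lost without no factor 12 h array 2 or 3 (limma adjusted p = 0.0571 and 0.0618).

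Mvd encodes mevalonate diphosphate decarboxylase, the enzyme that makes the isoprenoid building block of sterols. Its ratios at 6 d without factor were -1.46, -0.83, -0.65 and -3.17, against -0.59, -0.88, -0.75 and -0.67 at 12 h. All 8 arrays were below 0, and at 6 d array 4 lay far under the other 3. The group mean at 6 d was -1.53 ± 1.15 (SD, n = 4), and the gene was lower than the FGF-2 reference by 2.88-fold (limma adjusted p = 0.000337). As a fitted value with its standard error it was -1.53 ± 0.24 on all arrays. Without both 6 d arrays numbered 4 the fitted value was -1.06 ± 0.12, again with the standard error (limma adjusted p = 6.1e-05).

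With PDGF-AA the Mvd ratios were -0.52, -0.67, 0.20 and -0.78 at 6 d, against -0.87, -0.22, -0.41 and -0.45 at 12 h. The groups lay over each other, with 1 array above 0. The 6 d minus 12 h difference was 0.04 ± 0.33 with PDGF-AA and -0.80 ± 0.33 without factor, and neither was called (limma adjusted p = 0.976 and 0.329). Without both arrays numbered 4 these differences were 0.23 ± 0.16 and -0.33 ± 0.16. At 12 h without factor Mvd was at -0.72 ± 0.24 against FGF-2, just short of the call (limma adjusted p = 0.0586), and without both arrays numbered 4, which lowered the error to 0.10, it was called (limma adjusted p = 0.000278).

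Dhcr7 encodes 7-dehydrocholesterol reductase, which reduces 7-dehydrocholesterol to cholesterol. With PDGF-AA its ratios at 6 d were -0.07, -0.07, 0.38 and -0.18, against -0.57, -0.63, -0.92 and -0.55 at 12 h. No 6 d array overlapped the 12 h arrays. The difference was 0.68 ± 0.16, a 1.6-fold higher ratio at 6 d (limma adjusted p = 0.0455). Without factor the ratios were -0.16, 0.14, -0.27 and 0.12 at 6 d, against -0.32, -0.40, -0.45 and -0.77 at 12 h. Here too the groups did not overlap, and the gap between them was narrower. The difference was 0.44 ± 0.16 and was not called (limma adjusted p = 0.208), nor was it without both arrays numbered 4, at 0.38 ± 0.17 (limma adjusted p = 0.428). The exact two-sided permutation test gave p = 0.0286 under each treatment, the smallest that 4 against 4 arrays allow.

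The Dhcr7 call with PDGF-AA was close to the threshold. It held in 3 of 16 fits that left out a single array, without PDGF-AA 6 d array 4, no factor 6 d array 2 or no factor 12 h array 4, and the adjusted p over all 16 ran from 0.0362 to 0.125 (limma), with differences of 0.54 to 0.74. Without both 6 d arrays numbered 4 it was 0.75 ± 0.17 (limma adjusted p = 0.0362). It was lost with no dye term (limma adjusted p = 0.112) and when only both PDGF-AA groups were fitted (limma adjusted p = 0.206). Against FGF-2, Dhcr7 was lower at 12 h with PDGF-AA at -0.66 ± 0.11 (limma adjusted p = 0.0033) and at 12 h without factor at -0.48 ± 0.11 (limma adjusted p = 0.0078). The first of these calls held in all 16 fits with an array left out, and the second was lost without no factor 12 h array 4 (limma adjusted p = 0.0668). At 6 d it was near the reference, at 0.01 ± 0.11 with PDGF-AA and -0.04 ± 0.11 without factor.

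Array titles carry a number whose meaning is not stated, and this number bears on the PDGF-AA time course. All 12 h arrays and PDGF-AA 6 d array 4 share 1 number, while PDGF-AA 6 d arrays 1 to 3 carry others. The term for the number set PDGF-AA 6 d arrays 1 to 3 apart from all other arrays. It did not separate the numbers among those 3 arrays or that of no factor 6 d array 1. With this term, or on the arrays with the commonest number alone, the PDGF-AA 6 d value rests on array 4. The 6 d minus 12 h difference was then 0.66 and 0.63 for Hmgcs1 (limma adjusted p = 0.625 and 0.659) and 0.49 and 0.57 for Dhcr7 (limma adjusted p = 0.575 and 0.436). The number and time were therefore nearly aliased with PDGF-AA, and 0 of 5 members were called in either fit by limma. Mvd was at -0.65 and -0.70 and Elovl6 at -0.25 and -0.20 in the same fits, below 0 where the fit without the number put both above 0.

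**Figure D2:**
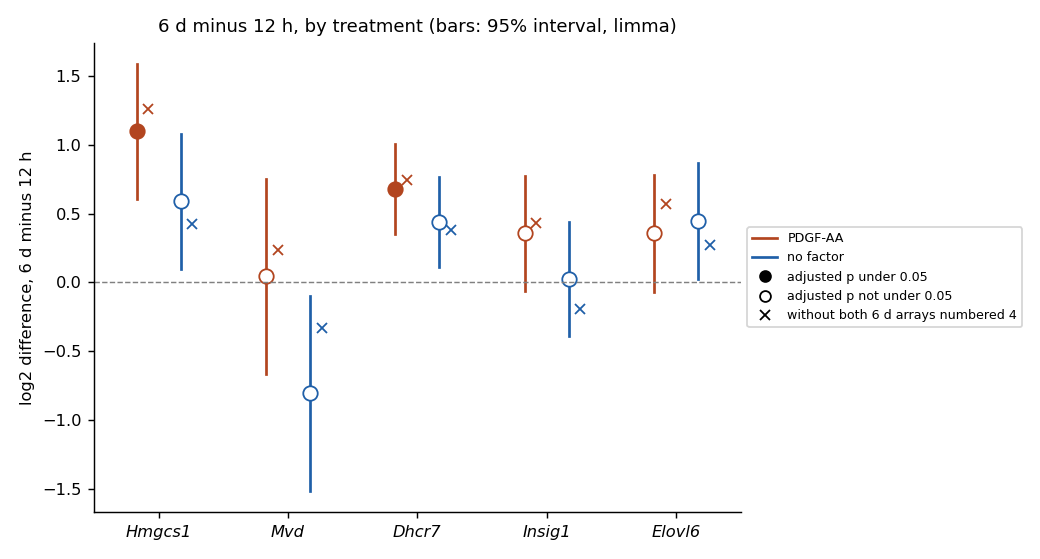
Fitted log2 difference, 6 d minus 12 h, for each gene with PDGF-AA (red, left) and without factor (blue, right), with 95% intervals. Filled circles passed the limma test, and crosses give the value without both 6 d arrays numbered 4. Hmgcs1 at 1.10 and Dhcr7 at 0.68 with PDGF-AA are the filled points.

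Insig1 encodes an endoplasmic reticulum protein that holds back SREBP activation and is itself a target of SREBPs. Without factor its ratios were -0.67, -1.10, -1.29 and 0.10 at 6 d, against -0.82, -0.60, -0.81 and -0.82 at 12 h. Of these 8 arrays only 6 d array 4 was above 0. The gene was lower than the FGF-2 reference at 6 d, at -0.74 ± 0.14 (1.67-fold, limma adjusted p = 0.0015), and at 12 h, at -0.76 ± 0.14 (1.7-fold, limma adjusted p = 0.0014). Both calls held in all 16 fits with an array left out, and the 6 d value was -0.95 ± 0.13 without both arrays numbered 4. The 6 d minus 12 h difference was 0.02 ± 0.20 (95% interval -0.39 to 0.44, limma adjusted p = 0.986), and -0.19 ± 0.17 without both arrays numbered 4.

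With PDGF-AA, Insig1 had 0.42, -0.13, -0.56 and -0.66 at 6 d, against -0.55, -0.93, -0.63 and -0.23 at 12 h. The 6 d arrays covered a wide range that took in most of the 12 h arrays. The difference was 0.36 ± 0.20 and was not called (limma adjusted p = 0.531), with 0.43 ± 0.17 without both arrays numbered 4 (limma adjusted p = 0.295). At 12 h with PDGF-AA the gene was lower than FGF-2 at -0.59 ± 0.14 (limma adjusted p = 0.0282), a call lost without PDGF-AA 12 h array 1, 2 or 4 (limma adjusted p = 0.0717 to 0.241). Both Insig1 spots gave nearly the same group means, with a correlation of 0.958 over the 16 arrays.

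Elovl6 encodes the elongase that lengthens palmitate to stearate. With PDGF-AA its ratios were 0.51, 0.09, 0.02 and -0.86 at 6 d, against -0.18, -0.44, -0.64 and -0.40 at 12 h. Arrays 1 to 3 at 6 d were above every 12 h array, and array 4 was below all of them. The difference was 0.36 ± 0.20 (limma adjusted p = 0.537), and without both arrays numbered 4 it was 0.57 ± 0.14, still short of the call (limma adjusted p = 0.0608). Without factor the ratios were -0.33, -0.59, -0.58 and 0.40 at 6 d, against -1.01, -0.33, -0.73 and -0.81 at 12 h. These groups overlapped through 12 h array 2, and the difference of 0.44 ± 0.20 was not called (limma adjusted p = 0.399), nor was the 0.27 ± 0.14 found without both arrays numbered 4.

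Against FGF-2, Elovl6 was lower at 12 h without factor at -0.72 ± 0.14 (1.65-fold, limma adjusted p = 0.0027), a call that held in all 16 fits with an array left out. At 6 d without factor it was at -0.28 ± 0.14 (limma adjusted p = 0.271), and at -0.45 ± 0.11 without both arrays numbered 4, which was called (limma adjusted p = 0.0131). The 4 Elovl6 spots correlated at 0.766 to 0.872 over the arrays, and their 6 d minus 12 h differences ran from 0.30 to 0.47 with PDGF-AA and from 0.36 to 0.49 without factor.

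PDGF-AA was also set against no factor at each time. At 6 d 0 of 5 members were called by limma, where 0.00796% of all units were called (1 unit, and 1100 at an unadjusted p under 0.05), and the members' median difference was 0.51 against 0.0007 over all units. All 5 differences were above 0, from 0.06 for Dhcr7 to 1.08 ± 0.33 for Mvd (limma adjusted p = 0.418), but the size turned on single arrays. Without no factor 6 d array 4 the Mvd difference was 0.60 (limma adjusted p = 0.275). With a term for the title number, the PDGF-AA 6 d value rests on array 4 alone. Mvd was then at 0.39, Insig1 at 0.34, Hmgcs1 at 0.27, Dhcr7 at -0.13 and Elovl6 at -0.39. Without that term Mvd, Insig1 and Hmgcs1 were at 1.08, 0.51 and 0.70. At 12 h 0 of 5 were called by limma, where 0.0159% of all units were called (2 units, and 681 at an unadjusted p under 0.05), with differences from -0.18 for Dhcr7 to 0.31 for Elovl6.

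Without both arrays numbered 4 the 6 d treatment comparison changed. Then 229 of 12559 units were called (1.82%), among them 3 of 5 members, all higher with PDGF-AA. Insig1 was at 0.80 ± 0.19 (limma adjusted p = 0.0476), Hmgcs1 at 1.03 ± 0.24 (limma adjusted p = 0.0480) and Mvd at 0.80 ± 0.18 (limma adjusted p = 0.0321). Elovl6 was at 0.61 ± 0.16 (limma adjusted p = 0.0694) and Dhcr7 at 0.18 ± 0.19 (limma adjusted p = 0.810). With the dye effect removed, Insig1 array 4 without factor was at -0.17, against -1.02 to -0.83 on arrays 1 to 3, and Elovl6 array 4 with PDGF-AA was at -0.61, against -0.15 to 0.27. Mvd array 4 without factor was at -2.87, against -1.16 to -0.95 on arrays 1 to 3 and -0.37 to -0.10 on PDGF-AA arrays 1 to 3, so for this gene it lay further from the PDGF-AA arrays than the others of its group. Without the arrays numbered 4 the PDGF-AA and no factor 6 d arrays share no title number, so the number and the treatment cannot be told apart there. Dye was no longer balanced there either, since the sample on array 4 was in Cy5 without factor and in Cy3 with PDGF-AA. The dye term stayed in the fit. In the same fit 7 of 13 DNA replication genes were higher with PDGF-AA, such as Rrm2 at 1.75 and Mcm6 at 1.51 (limma adjusted p = 0.0048 and 0.0053). Of 4 astrocyte genes 2 were lower with PDGF-AA, Gja1 at -1.08 among them (limma adjusted p = 0.0219), and of 3 oligodendrocyte lineage genes 1 was lower, Pdgfra at -1.85 (limma adjusted p = 0.0014). The part of these shifts in the difference of the members was not tested. On all arrays 0 of the 13 DNA replication genes were called by limma and Pdgfra was at -0.61. The arrays numbered 4 had stood apart from their groups on the DNA replication and oligodendrocyte lineage lists. Larger treatment differences on those lists therefore come with the choice of arrays. The same applies to members whose arrays numbered 4 lay towards the other treatment. With the dye effect removed, Hmgcs1 array 4 was at 0.28 without factor, against -0.56 to -0.11 on arrays 1 to 3. With PDGF-AA it was at 0.16, against 0.62 to 0.81. These 2 arrays were chosen for leaving out with earlier results of these data known, and the part of their identity in the result was not tested. The interaction of time and treatment stayed uncalled for all 5 members in the fit without them, with 0 of all units called by limma.

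**Figure D3:**
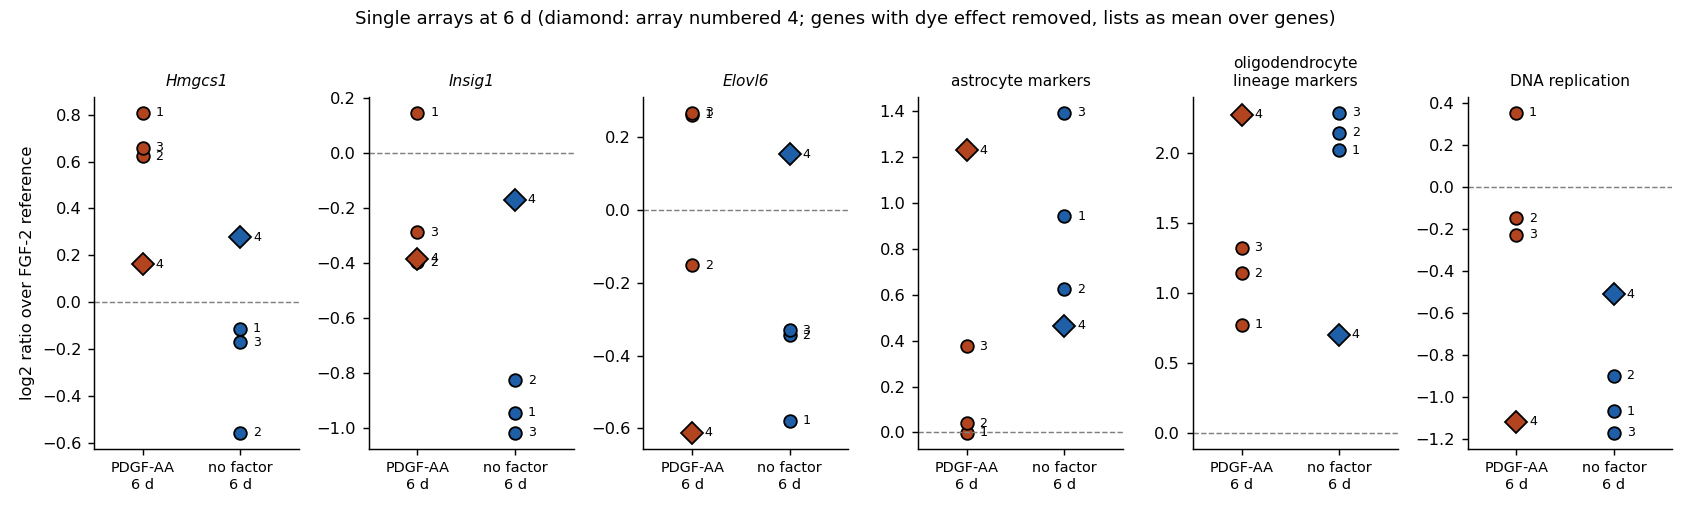
Single arrays at 6 d for 3 of the genes, with the dye effect removed, and for 3 marker lists as the mean over measured genes without that correction. Each panel has its own vertical scale in log2 ratio over FGF-2, and diamonds mark the arrays numbered 4. In the DNA replication panel the PDGF-AA diamond lies at -1.12, among the no factor arrays, and the no factor diamond lies at -0.51, above its group.

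Without those arrays, 4 of 5 members were called lower than FGF-2 at 12 h with PDGF-AA and 5 of 5 at 12 h without factor, where 4.29% and 12.5% of all units were called. At 6 d with PDGF-AA 1 of 5 was then called, Hmgcs1, higher than the reference at 0.72 ± 0.17 (limma adjusted p = 0.0422), where 1.9% of all units were called. With all arrays that value was 0.56 ± 0.16 (limma adjusted p = 0.0772). At 6 d without factor 3 of 5 were called, all lower, Mvd, Insig1 and Elovl6, where 13.2% of all units were called.

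The other measured genes of these routes came from 3 lists with 27 genes besides the members. They included Fdft1, Sqle, Lss and Msmo1, enzymes that act between farnesyl diphosphate and the late sterols. At 12 h with PDGF-AA 0 of 27 were called higher and 1 lower, and at 12 h without factor 2 were higher and 6 lower. Of all units 3.01% and 11.7% were called there in either direction. At 6 d with PDGF-AA 0 were higher and 1 lower, and at 6 d without factor 3 were higher and 3 lower, where 3.22% and 13.7% of all units were called. Between 6 d and 12 h, and between treatments at either time, 0 of 27 were called by limma in either direction, with medians between -0.047 and 0.056. At most 1.87% of all units were called in those comparisons. Without both arrays numbered 4 the counts at 6 d were 0 higher and 1 lower with PDGF-AA and 3 higher and 3 lower without factor, but the lower gene with PDGF-AA was then Srebf1, where with all arrays it was Tmem97.

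Of 8 measured cholesterol synthesis enzymes, members included, 6 were called lower at 12 h without factor, where 11.7% of all units were called. The median of the 8 was -0.50 against 0.0105 over all named genes. Squalene synthase (Fdft1) was at -0.49 ± 0.10, squalene epoxidase (Sqle) at -0.52 ± 0.12, lanosterol synthase (Lss) at -0.54 ± 0.14 and the sterol methyl oxidase gene Msmo1 at -0.43 ± 0.12, with limma adjusted p between 0.0031 and 0.0250. At 12 h with PDGF-AA only Dhcr7 was called among the 8, where 3.01% of all units were called, while the median was -0.45 against 0.0028. At 6 d the median was -0.02 with PDGF-AA and -0.20 without factor, and 0 and 2 of the 8 were called lower, Lss at -0.50 ± 0.14 being the second beside Mvd. Of all units 3.22% and 13.7% were called there.

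Among regulators and carriers, Tmem97, a sterol-responsive membrane protein also known as the sigma-2 receptor, was lower than FGF-2 in every group. It was at -0.52 ± 0.13 at 6 d and -0.70 ± 0.13 at 12 h with PDGF-AA, and at -0.71 ± 0.13 at 6 d and -0.93 ± 0.13 at 12 h without factor (limma adjusted p = 0.0381, 0.0071, 0.0014 and 0.000158). The first of these was not called without both arrays numbered 4 (-0.43, limma adjusted p = 0.211). Npc2, which carries cholesterol out of lysosomes, was higher at 12 h without factor at 0.33 ± 0.09 (limma adjusted p = 0.0268). The transcription factor genes Srebf1 and Srebf2 were called in 0 of the 9 comparisons by limma on all arrays. Srebf1 was at -0.70 ± 0.19 at 6 d with PDGF-AA (limma adjusted p = 0.0639), and without both arrays numbered 4 it was called there, at -1.003 (limma adjusted p = 0.0060). At 12 h without factor Srebf1 was at 0.21 ± 0.19, and Srebf2 stayed between -0.25 and 0.08 in the 4 groups.

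Of 16 measured genes of fatty acid synthesis, elongation and desaturation, 1 was higher and 2 lower at 12 h without factor, 3 higher and 1 lower at 6 d without factor, and 0 were called by limma in either PDGF-AA group. Of all units 11.7% were called at 12 h and 13.7% at 6 d without factor, and 3.01% and 3.22% with PDGF-AA. Beside Elovl6 the lower one at 12 h was Hsd17b12, the ketoreductase of the elongation cycle, at -0.54 ± 0.12 (limma adjusted p = 0.0052). The dehydratase gene Hacd3 was higher without factor at 6 d (0.67 ± 0.12) and at 12 h (0.47 ± 0.12, limma adjusted p = 0.0011 and 0.0162). At 6 d the reductase gene Tecr was higher at 0.38 ± 0.11, the stearoyl-CoA desaturase gene Scd2 was higher at 0.48 ± 0.09, and the citrate carrier gene Slc25a1 was lower at -0.45 ± 0.11. Fasn, the fatty acid synthase gene, was called in 0 of the 9 comparisons by limma, with values from -0.41 to -0.10 in the 4 groups.

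**Figure D4:**
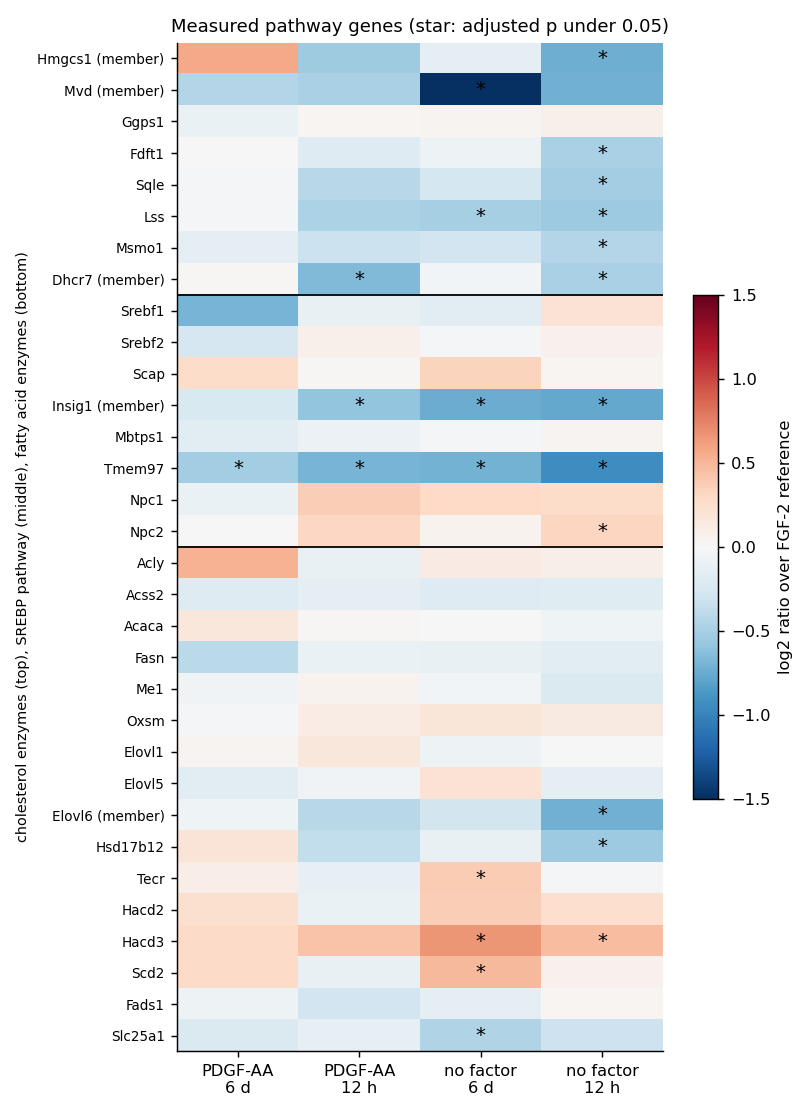
Fitted log2 ratio over the FGF-2 reference for the 32 measured pathway genes, members marked, in the 4 groups, with stars where the limma adjusted p was under 0.05. The colour scale ends at 1.5 in both directions, which clips Mvd at 6 d without factor. Stars on cholesterol enzymes lie mainly in the column for 12 h without factor, where 6 of 8 are starred, all lower.

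The members were also compared with each other over the 16 arrays with the dye effect removed. These correlations are descriptions over arrays that share a reference and 4 group means. Insig1, Hmgcs1 and Elovl6 ran together, with r = 0.744 for Insig1 with Hmgcs1, 0.725 for Hmgcs1 with Elovl6 and 0.674 for Insig1 with Elovl6. Over the 8 arrays of 6 d alone the same pairs had r of 0.836, 0.699 and 0.732. Dhcr7 correlated at 0.538 with Hmgcs1 and at 0.556 with Elovl6. Mvd had r with the other 4 from -0.219 to -0.054 over all arrays and from 0.050 to 0.393 over the 8 arrays of 6 d.

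The 5 non-member genes most like the mean of the members over the 16 arrays were Cse1l (r = 0.897), Dnph1 (0.894), Prc1 (0.878), Ube2c (0.876) and Shcbp1 (0.876). Prc1 and Ube2c are known for their roles in cell division. Ube2c was at -0.44 at 6 d and -1.32 at 12 h with PDGF-AA, and at -1.17 at 6 d and -1.82 at 12 h without factor. Between the times Ube2c was not called with PDGF-AA or without factor (limma adjusted p = 0.0567 and 0.153). Prc1 was called higher at 6 d with PDGF-AA (limma adjusted p = 0.0383) and was not called without factor (limma adjusted p = 0.105).

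Measures of proliferation and of cell type also differed between the groups. Between 6 d and 12 h, 0 of 13 DNA replication genes were called with PDGF-AA and 5 were called higher without factor. Of the members 2 of 5 and 0 of 5 were called, and of all units 1.07% and 1.87%. The mean of the 13 genes, with the dye effect left in, lay from -1.12 to 0.35 at 6 d and from -0.78 to -0.47 at 12 h with PDGF-AA. Without factor it lay from -1.17 to -0.51 at 6 d and from -1.83 to -1.57 at 12 h. With the dye effect removed, the mean of the 5 members was -0.42 to 0.19 at 6 d and -0.62 to -0.44 at 12 h with PDGF-AA, and -0.60 to -0.50 at 6 d and -0.79 to -0.61 at 12 h without factor. Of 3 measured oligodendrocyte lineage genes, 1 was called higher at 6 d than at 12 h with PDGF-AA and 2 without factor, Sirt2 among them at 2.13 ± 0.24 and 2.42 ± 0.24. Of 4 astrocyte genes, 1 was called higher at 6 d under each treatment, the gap junction gene Gja1, at 1.26 ± 0.23 with PDGF-AA and 1.56 ± 0.23 without factor. The others did not follow it closely. Slc1a3 and Glul were at 0.07 and 0.04 with PDGF-AA and at 0.37 and 0.50 without factor. Aldoc was below 0, at -0.13 with PDGF-AA and -0.41 without factor. Of 4 progenitor genes (Nes, Vim, Prom1 and Id1), 0 were called between the times by limma, and against FGF-2 2 and 1 were lower at 6 d and 12 h with PDGF-AA and 2 and 2 at 6 d and 12 h without factor. Against FGF-2, 3.22% and 3.01% of all units were called at 6 d and 12 h with PDGF-AA, and 13.7% and 11.7% without factor. Of 5 mesenchymal and meningeal genes, 2 were higher than FGF-2 at 6 d with PDGF-AA and 4 at 6 d without factor. The collagen gene Col3a1 was among these, and its 6 d minus 12 h difference was 0.72 ± 0.19 with PDGF-AA (limma adjusted p = 0.0900) and 0.89 ± 0.19 without factor, where it was called (limma adjusted p = 0.0214). Of 5 neuron genes, Uchl1 was lower at 6 d than at 12 h with PDGF-AA at -0.69 ± 0.14 (limma adjusted p = 0.0222). Without factor Uchl1 was at -0.43 ± 0.14 and was not called. Gap43 was higher without factor at 0.61 ± 0.15 (limma adjusted p = 0.0469). With PDGF-AA Gap43 was at 0.56 ± 0.15 and was not called. A ratio gives no level, so whether these markers were present in the cells could not be read from it. The part of these shifts in the results for the members was not tested.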

How the data were processed

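The members and gene lists were chosen with earlier results of these data known. The authors deposited 1 log ratio per spot and array, taken here as log2. Per the labels, 40 µg of total RNA was labelled by reverse transcription, hybridised to mouse cDNA chips, read on a ScanArray instrument and measured in QuantArray. No source used here names the normalization. Swapped arrays were taken as turned already. Within each group, spots with a mean ratio past 1 in size on the Cy5 arrays had the same sign on the Cy3 arrays in 58.7% to 89.4%. Over all pairs of the 16 arrays, single arrays of opposite dye correlated as low as -0.468, against 0.047 to 0.727 for the same dye. Spots were named by the chip annotation when it gave 1 symbol (8833 of 15151 spots). Of the rest, 606 had several symbols and 5712 none, and the latter entered the tests unnamed. Arrays were median-centred and fitted with limma 3.58.1 (R 4.3.3), with a mean for each group and a dye term. The fit was tested on simulated data with independent noise, which says nothing about the identity of arrays or the title number. Genes named besides the members passed the threshold in a comparison or were picked as key genes of the route. With no background signal deposited, the number of arrays limits the precision. Alternatives covered dye, scaling, array choice, weights, title number and leaving out arrays.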

Additional observations from a re-analysis of the deposited data

Results flagged for a closer look

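Insig1 at 12 h without factor had 1 array away from the other 3. Array 2 was at -0.60, against -0.82, -0.81 and -0.82, so the gap to the nearest array was 0.96 of the group's range, above Dixon's critical value for 4 arrays. This was 1 of 20 sets of 4 arrays examined for the members, and chance flags about 1 in 20. With the dye effect removed the same arrays were at -0.55, -0.87, -1.08 and -0.55, and array 2 no longer stood alone.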

How the results depend on the processing

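No paired analysis was possible because replicate numbers follow deposition order and pair no arrays. Values below are limma counts of genes or units called, or log2 differences, and the cause of each change was not tested. For the members, the calls of Insig1 and Elovl6 at 12 h without factor and of Mvd and Insig1 at 6 d without factor against FGF-2, and of Dhcr7 at 12 h with PDGF-AA, held under every alternative run.

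With no dye term, 0 members were called for 6 d minus 12 h with PDGF-AA and 1 at 12 h with PDGF-AA against FGF-2. All units called were then 38 and 87 for 6 d minus 12 h with PDGF-AA and without factor, 0 for PDGF-AA minus no factor at 6 d and 0 at 12 h, and 191, 156, 990 and 830 against FGF-2 at 6 d and 12 h with PDGF-AA and at 6 d and 12 h without factor.

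With arrays scaled to a common spread, and quantile normalized, 1 and 1 members were called at 6 d with PDGF-AA (Hmgcs1) and 1 and 1 at 12 h with PDGF-AA (Dhcr7) against FGF-2. Units called at 6 d with PDGF-AA were 622 and 610, and for PDGF-AA minus no factor 2 and 0 at 6 d and 0 and 0 at 12 h. Values near 0 turned sign: 6 d minus 12 h of Insig1 without factor was -0.0056 and -0.11, the Elovl6 interaction 0.0036 and 0.059, and scaled Elovl6 at 6 d with PDGF-AA was 0.017.

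With only the groups compared in the fit, 0 members and 21 units were called for 6 d minus 12 h with PDGF-AA, 0 units for PDGF-AA minus no factor at 6 d and 25 at 12 h, and 28 units at 6 d with PDGF-AA against FGF-2.

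With the title number as a term, and on arrays of the commonest number, 0 and 0 members and 9 and 11 units were called for 6 d minus 12 h with PDGF-AA, 8 and 18 units for PDGF-AA minus no factor at 12 h, and 132 and 175 at 6 d with PDGF-AA against FGF-2, with 1132 at 6 d without factor on the latter arrays. The 6 d minus 12 h difference with PDGF-AA was then -0.65 and -0.70 for Mvd and -0.25 and -0.20 for Elovl6. In both fits the PDGF-AA 6 d value rests on array 4 alone. PDGF-AA minus no factor at 6 d was -0.13 and -0.12 for Dhcr7 and -0.39 and -0.44 for Elovl6. Dhcr7 against FGF-2 was -0.17 and -0.10 at 6 d with PDGF-AA, and 0.024 without factor on arrays of the commonest number.

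Without both 6 d arrays numbered 4, members called were 3 for PDGF-AA minus no factor at 6 d, 1 at 6 d with PDGF-AA and 4 at 12 h with PDGF-AA against FGF-2. Units called were 259 for 6 d minus 12 h with PDGF-AA, 229 and 9 for PDGF-AA minus no factor at 6 d and 12 h, and 239 at 6 d with PDGF-AA against FGF-2. Insig1 6 d minus 12 h without factor was -0.19, the Elovl6 interaction 0.30 and Elovl6 at 6 d with PDGF-AA 0.16.

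With array weights, 204 and 469 units were called for 6 d minus 12 h with PDGF-AA and without factor, 32 for PDGF-AA minus no factor at 12 h, and 228, 1745 and 2300 against FGF-2 at 6 d and 12 h with PDGF-AA and at 12 h without factor. PDGF-AA minus no factor at 12 h was -0.046 for Hmgcs1, and Dhcr7 at 6 d with PDGF-AA was -0.017. By the unadjusted exact permutation test Dhcr7 passed without factor.

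Leaving out each array in turn, members called ran from 0 to 2 for 6 d minus 12 h with PDGF-AA, 0 to 1 at 6 d and 1 to 3 at 12 h with PDGF-AA against FGF-2. Units called ran from 48 to 211 and 111 to 300 for 6 d minus 12 h with PDGF-AA and without factor, 1 to 58 and 0 to 8 for PDGF-AA minus no factor at 6 d and 12 h, and, against FGF-2, 157 to 461 and 76 to 489 at 6 d and 12 h with PDGF-AA and 1012 to 1802 and 740 to 1564 at 6 d and 12 h without factor. Over these fits 6 d minus 12 h ran from -0.080 to 0.28 for Mvd with PDGF-AA and -0.18 to 0.12 for Insig1 without factor. PDGF-AA minus no factor ran from -0.084 to 0.13 for Dhcr7 at 6 d and -0.062 to 0.33 for Hmgcs1 at 12 h, and the Elovl6 interaction from -0.21 to 0.11. Against FGF-2 Dhcr7 ran from -0.13 to 0.076 and Elovl6 from -0.18 to 0.14 at 6 d with PDGF-AA, and Dhcr7 from -0.12 to 0.029 and Hmgcs1 from -0.29 to 0.011 at 6 d without factor.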

Other observations

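Genes of fatty acid oxidation, the opposite route, were measured by 15 of 19 listed genes. Against FGF-2, 11.7% of all units were called at 12 h and 13.7% at 6 d without factor, and 3.01% and 3.22% with PDGF-AA. At 12 h without factor 6 of 15 were called higher than FGF-2 and 0 lower, with a median of 0.25 against 0.0105 over all named genes. The mitochondrial carnitine carrier gene Slc25a20 was at 0.61 ± 0.10, the dehydrogenase gene Hadh at 0.53 ± 0.09, Echs1 at 0.51 ± 0.12, Acadvl at 0.50 ± 0.11, Hadha at 0.42 ± 0.10 and Acads at 0.37 ± 0.10 (limma adjusted p = 0.000735 to 0.0205). At 12 h with PDGF-AA 0 of 15 were called by limma, and the median was 0.17 against 0.0028. At 6 d 1 of 15 was called higher with PDGF-AA, Hadha at 0.41 ± 0.10 (limma adjusted p = 0.0381), and that call was lost without both arrays numbered 4 (0.32, limma adjusted p = 0.237). Without factor 4 were called higher at 6 d: Cpt1a, the gatekeeper of mitochondrial import, at 0.61 ± 0.15, Hadha at 0.57 ± 0.10, Acaa2 at 0.56 ± 0.11 and Acadvl at 0.44 ± 0.11. Between 6 d and 12 h, and between treatments, 0 of 15 were called by limma, where at most 1.87% of all units were called.

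Of 12 genes of cholesterol export and storage 2 were measured, and 0 were called by limma in the 9 comparisons.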
